A study of Mus musculus with 4 samples.

Results

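The complement and coagulation set holds 35 genes, picked by symbol as complement components, regulators and receptors and as genes of coagulation and fibrinolysis. All 35 have a row among the 24421 rows of the deposited gene table. The data are polyA RNA-seq of 4 C57BL/6 mice of 8 weeks, namely WT-139 with WT-140 (genotype Usp25+/+, 2 mice) and KO-826 with KO-850 (genotype Usp25-/-, 2 mice), Usp25 being a ubiquitin-specific protease. Every mouse, controls included, had received 2.5% dextran sulfate sodium (DSS), an agent that injures the gut lining, for 5 days and then normal water for 2 days, so no untreated mouse is part of the comparison. The labels give the tissue as a short piece of distal colon. They do not name the allele that removes Usp25 or say whether the mice were littermates, and p-values measure only the spread between these 4 mice. Levels are FPKM, fragments scaled to transcript length and library size, which allow levels to be compared between genes.

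Complement is a cascade of plasma and tissue proteins that marks surfaces for uptake and can perforate membranes. C1q and mannose-binding lectins start it through C4 and C2, the alternative route amplifies it through factor B and properdin, and all routes meet at C3. Coagulation starts when tissue factor meets factor VII and ends in cross-linked fibrin, which plasmin then dissolves. The liver makes most of the plasma proteins of both systems, while macrophages, neutrophils, endothelium, fibroblasts and epithelium make a share in tissues and carry the receptors and membrane regulators.

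Usp25 had 38.5 and 16.6 FPKM in the intact mice, WT-139 and WT-140, and 2.65 and 1.71 FPKM in mice KO-826 and KO-850, following the labels. The tissue label was not borne out by its markers. Of 9 colon epithelial genes 6 stayed below 1 FPKM in all 4 mice, with Zg16 and Aqp8 listed at 0, whereas 8 lung epithelial genes summed to between 2297 and 5296 FPKM. The libraries are called colon only as their label. Of 7 hepatocyte genes 6 stayed below 1 FPKM in all mice and Serpina1a was listed at 0, the summed level being 0.343 to 2.36 FPKM. Mouse WT-139 stood apart, with 7 neutrophil genes summing to 41503 FPKM, and to 757 FPKM in mouse WT-140, 2076 FPKM in mouse KO-826 and 1223 FPKM in mouse KO-850. Over the 31 complement and coagulation genes that were tested, log2 levels of mouse WT-139 correlated with the other libraries at 0.76 to 0.83, and those of the other 3 mice with each other at 0.91 to 0.97. These values are across genes, which are not independent replicates. Results are therefore given with and without mouse WT-139. In such bulk libraries, fewer cells of a type and less RNA per cell cannot be told apart.

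**Figure D1:**
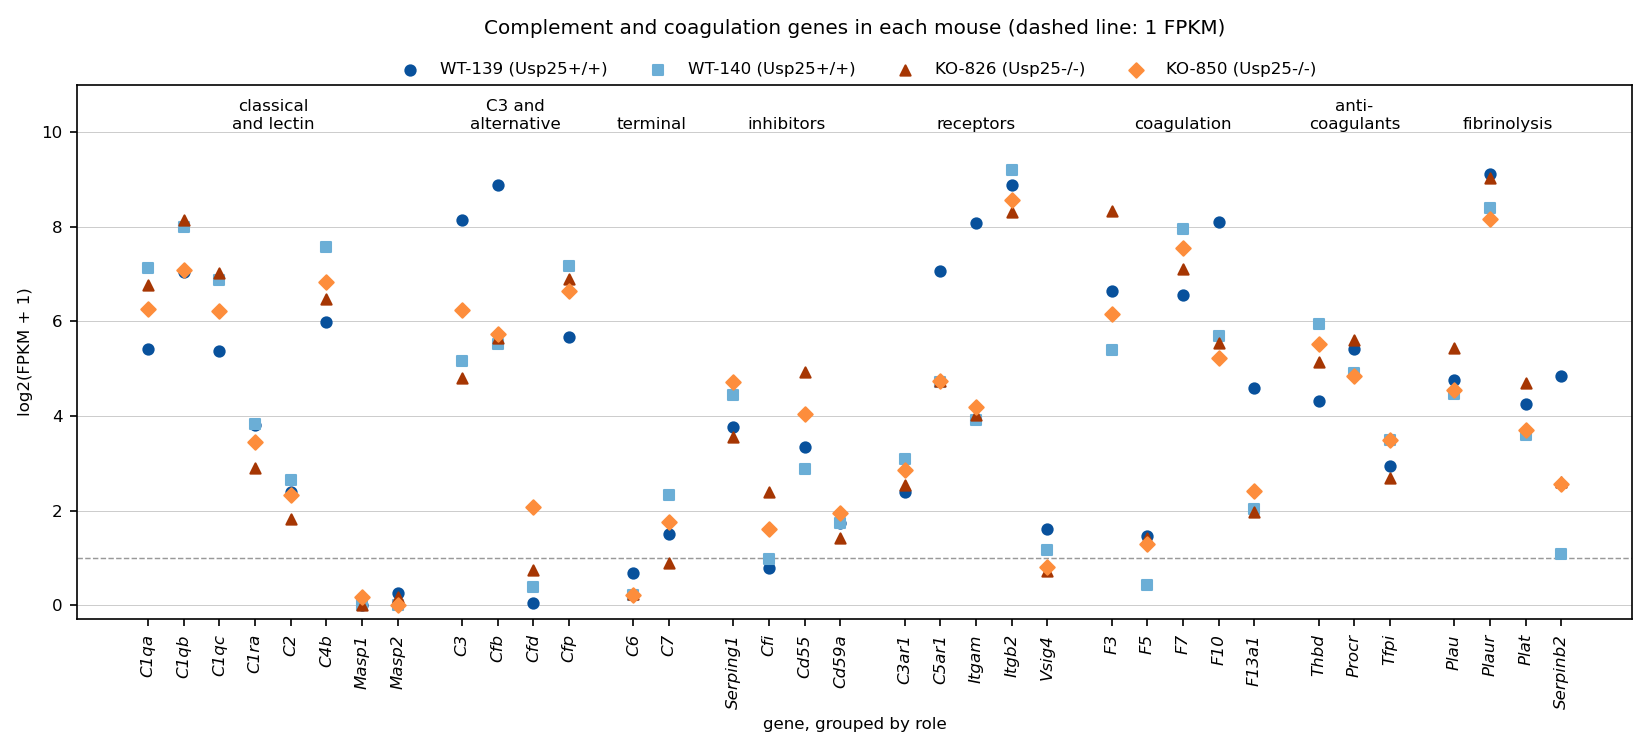
Levels of all 35 genes as log2(FPKM + 1) on the vertical axis, grouped by role along the horizontal axis, every point being 1 mouse. Itgb2 and Plaur stand high in all mice, Masp1, Masp2 and C6 lie near 0, and mouse WT-139 is far above the rest for C3, Cfb, C5ar1, Itgam, F10, F13a1 and Serpinb2.

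A gene was tested when it reached 1 FPKM in at least 2 mice, which 31 of the 35 did. Masp1, Masp2 and C6 stayed below 1 FPKM in all 4 mice, and Cfd exceeded it in mouse KO-850 alone. The difference between the genotypes, Usp25-/- minus Usp25+/+, was tested with limma on log2(FPKM + 1), on which changes of weakly expressed genes look smaller than they are, and p-values were adjusted by Benjamini-Hochberg over the 12103 genes tested. None of the 31 passed an adjusted p of 0.05, and the share of all tested genes that did was 0%. The smallest adjusted p among the 31 was 0.968 (limma). Usp25 itself did not pass either (log2 difference -3.07, limma adjusted p = 0.968). At an unadjusted p under 0.05 there were 2 of them, Cd55 and Cfi, beside 3.30% of all genes tested. Cfi passed the filter through the Usp25-/- mice alone. Mean log2 levels were higher in Usp25-/- mice for 14 and lower for 17, with a median difference of -0.05. Among all tested genes 53.6% were higher, and the median difference was 0.03.

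C1q, the recognition molecule of the classical pathway, was abundant in each library. C1qa stood at 41.5 FPKM in WT-139 and 138 FPKM in WT-140, the Usp25+/+ mice, and at 107 FPKM in KO-826 and 75.7 FPKM in KO-850, the Usp25-/- mice. C1qb, which encodes another chain, stood at 131 and 252 FPKM versus 279 and 135 FPKM. C1qc, the remaining chain, stood at 40.7 and 116 FPKM versus 129 and 73.2 FPKM. For each chain the groups overlapped, mice WT-139 and KO-850 held the lower values and mice WT-140 and KO-826 the higher ones. The ratio of C1qc to C1qa lay between 0.842 and 1.20 and that of C1qb to C1qa between 1.78 and 3.15. Log2 differences were 0.25 ± 0.62 for C1qa, 0.09 ± 0.53 for C1qb and 0.49 ± 0.60 for C1qc (SE, limma adjusted p between 0.968 and 0.994). Without mouse WT-139 all of them turned negative, at -0.61, -0.38 and -0.26. The summed level of 8 macrophage genes was 961 and 1404 FPKM in Usp25+/+ and 826.2 and 882 FPKM in Usp25-/- mice, highest in mouse WT-140 through Cd68. Without Cd68 the sums were 628 and 531 against 495 and 399.7 FPKM, highest in mouse WT-139. Adgre1, Csf1r, Marco and Cd163 (at most 1.01 FPKM) were also highest in that mouse. Mrc1 and Mertk were lowest in it, at 149 and 41.0 FPKM, and like Siglecf were highest in mouse WT-140. The part of macrophage transcripts in the C1q values was not tested.

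The C1q genes lie side by side on the minus strand of chromosome 4 in the mm9 build, C1qb from 136436044 to 136442102, C1qc from 136445719 to 136448980 and C1qa from 136451832 to 136454718. No other gene of the annotation overlaps them, 3616 bases separate C1qb from C1qc and 2851 bases separate C1qc from C1qa. Because these neighbours held a like order across mice, the 250 bases before the start site are shown for those with an entry in the RefSeq table (GRCm38.p6, minus strand), chr4:136886201-136886450 for C1qb and chr4:136892915-136893164 for C1qc. Capitals mark matches to the motifs searched.
C1qb: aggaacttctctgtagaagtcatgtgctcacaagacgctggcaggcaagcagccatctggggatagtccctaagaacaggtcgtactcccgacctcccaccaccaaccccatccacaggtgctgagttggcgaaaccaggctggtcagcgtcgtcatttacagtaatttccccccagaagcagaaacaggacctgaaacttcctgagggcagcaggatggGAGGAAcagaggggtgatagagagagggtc
C1qc: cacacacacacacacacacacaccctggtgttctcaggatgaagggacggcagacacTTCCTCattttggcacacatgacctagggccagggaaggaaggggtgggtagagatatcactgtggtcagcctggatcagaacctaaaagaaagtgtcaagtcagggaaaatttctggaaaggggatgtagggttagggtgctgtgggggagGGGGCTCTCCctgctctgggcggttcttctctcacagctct
On both strands 6 motifs were searched, namely GAGGAA (the core bound by PU.1, a factor of myeloid cells), TGANTCA (AP-1), TTGCNNAA (C/EBP), TTCNNNGAA (GAS), TTCNNTTTC (ISRE) and NF-kappaB, and matches of different motifs were allowed to overlap. Both sequences hold the PU.1 core, starting 30 and 193 bases before the start site, and C1qc also holds an NF-kappaB match. Among all 32851 entries 23.3% hold the PU.1 core, 6.75% AP-1, 9.56% C/EBP, 7.02% GAS, 7.13% ISRE and 3.90% NF-kappaB within 250 bases. Entries were found for 24 of the 35 genes. A match describes letters and not a bound site.

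C1ra and C2, protease genes downstream of C1q, were at lower levels in both Usp25-/- mice, by amounts that did not pass the test. C1ra, the protease that C1q activates, was at 13.1 and 13.3 FPKM in Usp25+/+ mice, compared with 6.51 and 9.86 FPKM in Usp25-/- mice, or 13.2 ± 0.114 against 8.19 ± 2.37 FPKM (SD, n = 2). Its log2 difference was -0.65 ± 0.32 (SE, limma adjusted p = 0.968) and -0.66 without mouse WT-139, -0.38 without mouse KO-826 and -0.92 without mouse KO-850. C1ra overlaps its close copy C1rb on the same strand in the annotation, so fragments may be split between them. C2, which supplies the enzyme part of the C3 convertase, stood at 4.29 and 5.24 FPKM versus 2.52 and 4.04 FPKM, a log2 difference of -0.45 ± 0.33 that was -0.19 without mouse KO-826 and -0.71 without mouse KO-850. C4b, the mouse C4 gene, overlapped between the groups at 62.1 and 188 FPKM versus 87.9 and 113 FPKM. Mouse WT-139 held its lowest value and mouse WT-140 its highest, and without mouse WT-139 the log2 difference moved from -0.12 to -0.91. C4b has a near-identical neighbour, C4a, and stood between 15.5 and 23.0 times as high as it. The lectin pathway proteases were hardly found. Masp1 was listed at 0 in 3 mice and at 0.136 FPKM in mouse KO-850, and Masp2 did not exceed 0.192 FPKM.

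C3 and factor B, the core of the alternative pathway, were far higher in mouse WT-139 than in the other 3 mice. C3, the component all routes cleave, was at 282 and 34.7 FPKM in Usp25+/+ mice, compared with 26.7 and 74.0 FPKM in Usp25-/- mice. Cfb, the factor B gene, stood at 469 and 44.9 FPKM versus 49.2 and 52.0 FPKM. The 3 mice other than WT-139 lay within 44.9 to 52.0 FPKM for Cfb, and the groups overlapped for both genes. Log2 differences were -1.14 ± 1.06 for C3 and -1.51 ± 1.08 for Cfb (SE, limma adjusted p = 0.968), and without mouse WT-139 they were 0.35 and 0.17. Cfb and C2 are neighbours on chromosome 17 (mm9, minus strand), Cfb from 34993319 to 34999463 and C2 from 34999549 to 35035397, with 85 bases between them. They did not share a pattern, since Cfb was 109 times as high as C2 in mouse WT-139 but only 8.57 (WT-140), 19.5 (KO-826) and 12.9 times (KO-850) as high elsewhere. The annotation also places the gene Gm20547 across both, so fragments may be shared with it. Cfp, which encodes properdin, a stabiliser of the alternative convertase, stood at 49.8 and 142 FPKM versus 118 and 99.2 FPKM, lowest in mouse WT-139. Cfd, the gene of factor D, the protease that cleaves factor B, stood at 0.0300 and 0.314 FPKM versus 0.685 and 3.24 FPKM and was not tested.

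The C3 promoter is printed because all routes meet at C3 and its level set mouse WT-139 apart (RefSeq, GRCm38.p6, minus strand, chr17:57228137-57228386). In capitals is a C/EBP match that starts 45 bases before the start site, the only match to the 6 motifs in these 250 bases.
C3: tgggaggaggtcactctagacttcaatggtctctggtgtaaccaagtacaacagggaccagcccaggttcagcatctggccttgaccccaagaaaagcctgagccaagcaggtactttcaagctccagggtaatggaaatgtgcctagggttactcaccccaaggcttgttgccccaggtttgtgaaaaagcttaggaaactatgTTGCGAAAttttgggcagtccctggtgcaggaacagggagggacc

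Genes of the membrane attack complex were low. C7 was at 1.83 and 4.05 FPKM in Usp25+/+ mice, compared with 0.844 and 2.40 FPKM in Usp25-/- mice, and the groups overlapped (log2 difference -0.59 ± 0.48). Leaving out mouse KO-826 or WT-140 gave -0.15 and -0.18, and leaving out mouse WT-139 or KO-850 gave -1.01 and -1.03. C6 did not exceed 0.615 FPKM in any mouse.

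Among the inhibitors, Cd55 and Cfi were at higher levels in both Usp25-/- mice and had the smallest unadjusted p of the set. Cd55, or decay-accelerating factor, a membrane protein that takes C3 convertases apart, was at 9.18 and 6.36 FPKM in Usp25+/+ mice, compared with 29.2 and 15.5 FPKM in Usp25-/- mice, or 7.77 ± 2.00 against 22.4 ± 9.66 FPKM (SD, n = 2). Both Usp25-/- mice lay above both Usp25+/+ mice. The log2 difference was 1.37 ± 0.41 (SE), which did not pass limma (adjusted p = 0.968). It was 1.60 without mouse WT-139, 1.13 without mouse WT-140, 0.93 without mouse KO-826 and 1.80 without mouse KO-850. Cfi, the gene of factor I, a protease that inactivates C3b and C4b, stood at 0.713 and 0.961 FPKM versus 4.24 and 2.05 FPKM. Its groups did not overlap either, and the log2 difference was 1.12 ± 0.39 (SE, limma adjusted p = 0.968) and 1.03 without mouse WT-139. Cfi reached 1 FPKM only in the Usp25-/- mice, so its groups could not overlap once it passed the filter. Without mouse KO-826 or mouse KO-850 it was too low to test. Of 5 gastric-type epithelial genes 4 were also at higher levels in both Usp25-/- mice, beside 19.0% of all tested genes. Muc5ac, 1 of the 4, did not exceed 0.504 FPKM in any mouse and was not tested. Tff2 was lowest in mouse KO-826. The 5 summed to 128 and 159 FPKM in Usp25+/+ and to 2711 and 1045 FPKM in Usp25-/- mice, with Tff1 and Gkn2 the highest. The 9 colon epithelial genes summed to 5.12 and 3.27 against 55.3 and 7.95 FPKM, mostly Krt20. The 8 lung epithelial genes summed to 2297 and 4431 against 5259 and 5296 FPKM. Without Sftpb these sums overlapped, at 1432 and 3292 against 1975 and 3715 FPKM. The 4 mesothelial genes summed to 47.6 and 34.1 against 140 and 81.4 FPKM, mostly Msln. The 7 mast cell genes summed to 99.3 and 161 against 1598 and 678 FPKM through Mcpt1 and Mcpt2. Kit and Mcpt4 were lower in both Usp25-/- mice, Cpa3 did not exceed 0.396 FPKM and Tpsb2 was listed at 0. The part of these lists in the Cd55 and Cfi values was not tested. Serping1, the C1 inhibitor gene, stood at 12.7 and 20.7 FPKM versus 10.7 and 25.2 FPKM, and Cd59a, which blocks the membrane attack complex, at 2.36 and 2.31 FPKM versus 1.69 and 2.85 FPKM. For both, the Usp25-/- mice lay on either side of the Usp25+/+ mice.

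Cd55 lies on chromosome 1 from 132335604 to 132359321 (mm9, minus strand) and is overlapped by the lincRNA gene Gm16083 on the other strand. Whether the counting used strand is not given in the sources used here, so reads of these genes may not have been told apart. Cd55b, a close copy of Cd55, did not exceed 1.14 FPKM. As the gene with the smallest unadjusted p of the set, its 250 upstream bases are shown (RefSeq, GRCm38.p6, minus strand, chr1:130462745-130462994). They hold no match to the 6 motifs.
Cd55: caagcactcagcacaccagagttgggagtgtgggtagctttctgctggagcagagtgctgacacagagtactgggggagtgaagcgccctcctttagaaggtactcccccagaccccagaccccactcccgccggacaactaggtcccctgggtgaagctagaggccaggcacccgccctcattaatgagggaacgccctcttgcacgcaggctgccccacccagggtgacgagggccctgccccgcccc

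Complement receptors were lower by mean log2 level in Usp25-/- mice in 5 of 5 cases, none past the test, beside 46.4% of all tested genes. Without mouse WT-139, 4 could be tested, with 2 higher and 2 lower. Itgb2, the shared beta chain of complement receptors 3 and 4, was among the highest genes of the set, at 466 and 587 FPKM in Usp25+/+ and 317 and 377 FPKM in Usp25-/- mice. Its groups did not overlap, with a log2 difference of -0.60 ± 0.36 (SE, limma adjusted p = 0.968) and of -0.76 without mouse WT-139. Itgam, the alpha chain of complement receptor 3 and a gene of neutrophils and monocytes, stood at 268 and 14.2 FPKM versus 15.2 and 17.3 FPKM. The high value belonged to mouse WT-139 alone, and leaving it out turned the log2 difference from -1.89 to 0.18. C5ar1, the receptor for C5a, was also far higher in mouse WT-139 than elsewhere, at 132 and 25.4 FPKM versus 25.5 and 25.6 FPKM. C3ar1, the receptor for C3a, lay between 4.23 and 7.51 FPKM in all mice and its groups overlapped. Vsig4, a macrophage receptor for C3b, stood at 2.06 and 1.24 FPKM versus 0.654 and 0.745 FPKM. Its groups did not overlap (log2 difference -0.62 ± 0.34, limma adjusted p = 0.968), and without mouse WT-139 it was too low to test. Vsig4 reached 1 FPKM only in the Usp25+/+ mice, so its groups could not overlap once it passed the filter.

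Tissue factor and the factor VII and X genes were the main coagulation genes found. F3, which encodes tissue factor, the starter of coagulation, was at 99.2 and 40.7 FPKM in Usp25+/+ mice, compared with 319 and 70.2 FPKM in Usp25-/- mice. Mouse KO-826 was above each other mouse by more than 2-fold on FPKM + 1, and the groups overlapped through mouse WT-139. The log2 difference was 1.22 ± 0.83 (SE, limma adjusted p = 0.968) and 1.86 without mouse WT-139. Leaving out each mouse in turn gave 0.14 (without mouse KO-826) to 2.31 (without mouse KO-850). F7, the partner of tissue factor, stood at 93.0 and 247 FPKM versus 137 and 186 FPKM. F10, the factor X gene, whose product forms thrombin, stood at 273 and 50.3 FPKM versus 45.6 and 36.3 FPKM. Mouse WT-139 thus held the lowest F7 value and the highest F10 value. F10 was lower in both Usp25-/- mice than in both Usp25+/+ mice, with a log2 difference of -1.51 ± 0.81 (SE, limma adjusted p = 0.968) that shrank to -0.30 without mouse WT-139. F13a1, the subunit of factor XIII that cross-links fibrin, stood at 23.2 and 3.07 FPKM versus 2.94 and 4.37 FPKM, high in mouse WT-139 only. F5, the cofactor of factor X, did not exceed 1.78 FPKM. Hepatocyte genes were near 0 in all mice, as given above.

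F7 and F10 are adjacent on the plus strand of chromosome 8 in the mm9 build, F7 from 13026034 to 13035809 and F10 from 13037308 to 13056676, with 1498 bases between them and no overlapping gene. The ratio of F10 to F7 was 2.93 in mouse WT-139, while the other libraries gave 0.204 (WT-140), 0.332 (KO-826) and 0.195 (KO-850). Their upstream bases are set side by side because the neighbours parted in that mouse (RefSeq, GRCm38.p6, plus strand, chr8:13025784-13026033 for F7 and chr8:13037058-13037307 for F10).
F7: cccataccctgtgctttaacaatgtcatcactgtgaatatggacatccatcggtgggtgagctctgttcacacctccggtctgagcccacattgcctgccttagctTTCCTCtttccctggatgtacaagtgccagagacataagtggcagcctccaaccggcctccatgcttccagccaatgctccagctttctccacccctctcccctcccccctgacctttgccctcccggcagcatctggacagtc
F10: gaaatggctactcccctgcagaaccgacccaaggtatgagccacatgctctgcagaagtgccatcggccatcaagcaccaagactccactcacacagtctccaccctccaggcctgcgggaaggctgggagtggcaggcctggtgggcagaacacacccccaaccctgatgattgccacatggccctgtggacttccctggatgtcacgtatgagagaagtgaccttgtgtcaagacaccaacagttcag
F7 holds a PU.1 core, in capitals, starting 144 bases before the start site, and F10 holds no match to the 6 motifs.

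Anticoagulant genes overlapped between the genotypes. Thbd, the gene of thrombomodulin, which turns thrombin toward protein C, was at 18.8 and 60.6 FPKM in Usp25+/+ mice, compared with 34.0 and 44.8 FPKM in Usp25-/- mice. Tfpi, which inhibits tissue factor with factor VII, stood at 6.68 and 10.3 FPKM versus 5.43 and 10.2 FPKM. Both were higher in mice WT-140 and KO-850 than in mice WT-139 and KO-826. The summed level of 7 endothelial genes was 105 and 277 FPKM in Usp25+/+ and 90.1 and 184 FPKM in Usp25-/- mice, also higher in mice WT-140 and KO-850, and its part in these values was not tested. Procr, the endothelial receptor for protein C, had the other order, at 41.8 and 29.0 FPKM versus 47.8 and 27.6 FPKM.

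Fibrinolysis genes overlapped between the genotypes too. Plaur, the receptor of urokinase, was among the highest genes of the set, at 548 and 335 FPKM in Usp25+/+ and 521 and 285 FPKM in Usp25-/- mice. Plau, or urokinase, stood at 26.2 and 20.9 FPKM versus 42.4 and 22.4 FPKM, and Plat, or tissue plasminogen activator, at 18.1 and 11.2 FPKM versus 24.8 and 11.95 FPKM. All of these were higher in mice WT-139 and KO-826 than in mice WT-140 and KO-850, as Procr was. Serpinb2, an inhibitor of plasminogen activators, stood at 27.9 and 1.11 FPKM versus 5.06 and 4.87 FPKM. Mouse WT-139 was the highest and mouse WT-140 the lowest, and leaving out mouse WT-139 turned the log2 difference from -0.39 ± 1.20 to 1.50. The plasmin precursor gene Plg was listed at 0 in all mice.

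**Figure D2:**
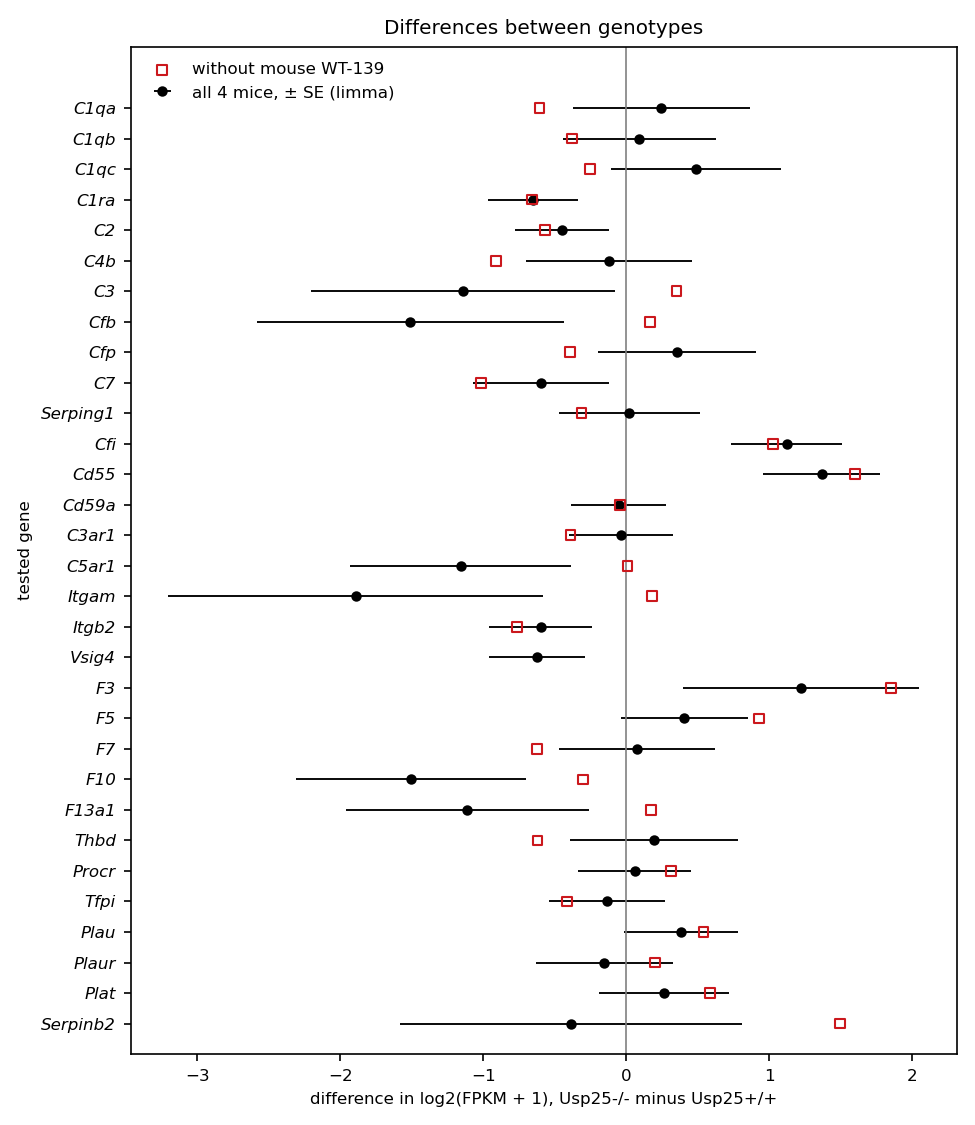
Differences in log2(FPKM + 1), Usp25-/- minus Usp25+/+, on the horizontal axis for the 31 tested genes, with filled points and bars for the estimate ± SE over 4 mice and open squares for the value without mouse WT-139. Cd55 and Cfi stay near 1.60 and 1.03 without that mouse, while C3, Cfb and Itgam move from below 0 to above it.

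Genotype groups that did not overlap were found for 7 of the 31 tested genes. Higher in both Usp25-/- mice were 2 genes, Cd55 and Cfi, beside 19.0% of all tested genes. Lower in both were 5, C1ra, C2, Itgb2, Vsig4 and F10, beside 14.7%. Cfi and Vsig4 reached 1 FPKM in a single genotype, so passing the filter fixed that their groups did not overlap. In either direction the share was 22.6% of the tested genes of the set and 33.7% of all tested genes. Without mouse WT-139, 30 genes could be tested and 14 of their differences changed sign. Then 0 passed an adjusted p of 0.05 (0% of all tested genes), with mean levels higher in 14 and lower in 16 (48.5% of all tested genes were higher) and a median difference of -0.15. Without mouse WT-140, mouse WT-139 was the lone Usp25+/+ mouse and 5 of 30 genes of the set passed limma, all lower in Usp25-/- mice, beside 1.27% of all tested genes called lower. Log2 differences of these were then -3.97 for Itgam, -3.19 for Cfb, -2.72 for F10, -2.33 for C5ar1 and -2.28 for Serpinb2. For C3 and F13a1, which did not pass, they were -2.63 and -2.40.

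**Figure D3:**
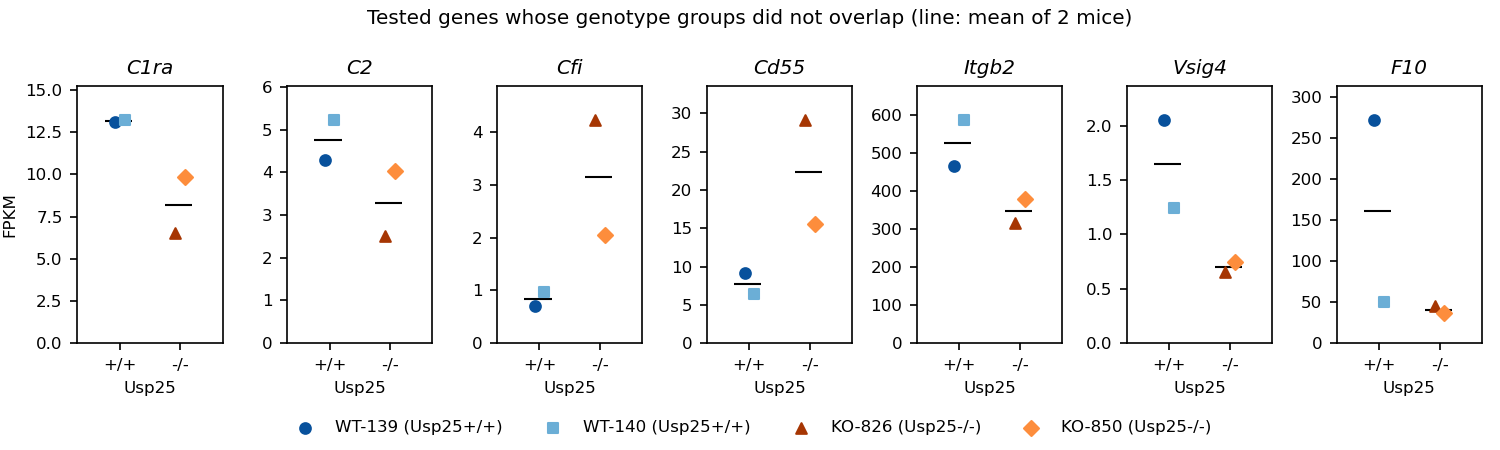
FPKM on vertical axes that start at 0 for the 7 tested genes whose genotype groups did not overlap, with 1 point for each mouse and a line at the mean of 2 mice. Cd55 and Cfi are higher in both Usp25-/- mice, the other 5 are lower, and for F10 the distance rests on mouse WT-139 at 273 FPKM.

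Several genes of the set were far higher in mouse WT-139 than elsewhere. That mouse lay above each of the other 3 mice by 2-fold or more, on FPKM + 1, for 7 of the 31 tested genes (22.6%), beside 5.21% of all tested genes. This fold was chosen with the values known, and the count is a description of that library. The 7 were C3, Cfb, C5ar1, Itgam, F10, F13a1 and Serpinb2, which span components, receptors, coagulation factors and an inhibitor of fibrinolysis. For none of the 31 did it lie below the others by that much (3.06% of all tested genes). It was nonetheless the lowest of the 4 mice for C1qa, C1qb, C1qc, C4b, Cfp, Cfi, C3ar1, F7 and Thbd, 9 genes or 29.0%, beside 39.1% of all tested genes. By the same measure mouse KO-826 lay above the rest for F3 alone (1.86% of all tested genes) and below for none (0.711%), mouse WT-140 below the rest for Serpinb2 alone (0.587%) and above for none (0.281%), and mouse KO-850 for none in either direction (0.198% above and 0.223% below). In mouse WT-139 the neutrophil genes S100a8 and S100a9 stood at 19445 and 18028 FPKM against at most 838 and 1013 FPKM elsewhere. The part of neutrophil transcripts in these 7 genes was not tested.

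**Figure D4:**
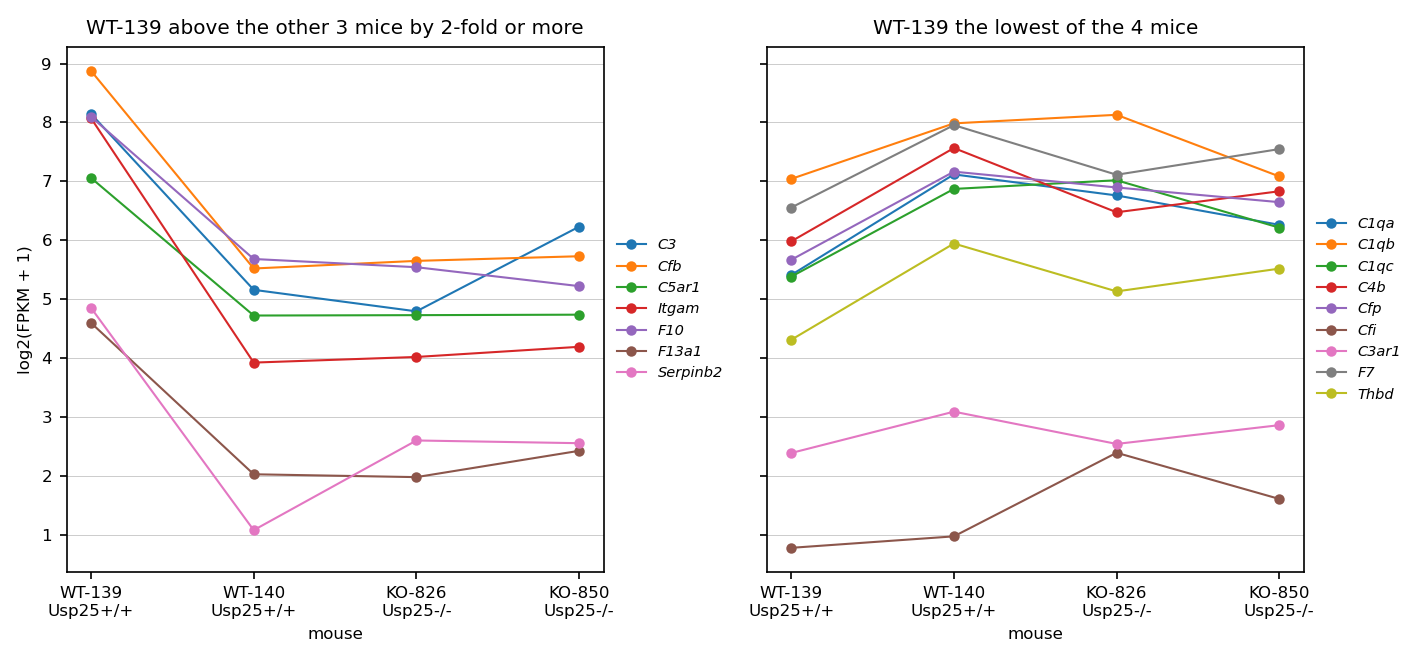
Levels as log2(FPKM + 1) on the vertical axis in the 4 mice along the horizontal axis, where lines join the values of 1 gene and imply no order of the mice. At left are the 7 genes for which mouse WT-139 lay above the other 3 by 2-fold or more, among them Cfb at 469 against 44.9 to 52.0 FPKM, and at right the 9 for which it was the lowest, among them C1qa at 41.5 against 75.7 to 138 FPKM.

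Other genes of both systems were read from lists written with earlier results known. Of 38 further complement genes with a row, 17 were tested, 7 higher and 10 lower in Usp25-/- mice with a median log2 difference of -0.06. Among all tested genes 53.6% were higher. Of the 17, 0 passed limma (0% of all tested genes) and 3 had an unadjusted p under 0.05, beside 3.30% of all tested genes. Those 3 were Clu, C1rb and C1rl. Clu, or clusterin, a chaperone that also blocks the membrane attack complex, was at 735 and 945 FPKM in Usp25+/+ mice, compared with 4850.1 and 2323 FPKM in Usp25-/- mice (log2 difference 2.01 ± 0.53, limma adjusted p = 0.968). C1rb stood at 4.46 and 2.81 FPKM versus 1.62 and 0.796 FPKM, and C1rl, a C1r-like protease, at 9.11 and 5.41 FPKM versus 3.39 and 2.999 FPKM. Like C1ra, both were lower in each Usp25-/- mouse, as were 14.7% of all tested genes. Next by p came C5ar2, Fcna and C1qbp, with log2 differences of -0.38, 0.73 and 0.38. Of the untested complement genes 20 stayed below 1 FPKM in all mice, with Colec11 listed at 0.

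Of 47 further coagulation genes 17 were tested, 9 higher and 8 lower with a median log2 difference of 0.24. Among all tested genes 53.6% were higher. Of the 17, 0 passed limma (0% of all tested genes) and 1 had an unadjusted p under 0.05, beside 3.30% of all tested genes. That gene was F2rl1, a receptor cleaved by trypsin-like proteases and by the tissue factor complex, at 4.78 and 3.69 FPKM in Usp25+/+ and 13.9 and 7.16 FPKM in Usp25-/- mice (log2 difference 1.08 ± 0.39, limma adjusted p = 0.968). Like Cd55 and F3 it was highest in mouse KO-826, as were 25.5% of all tested genes. Tgm2, a transglutaminase, stood at 286 and 219 FPKM versus 159 and 117 FPKM, and Vwf, the von Willebrand factor gene of endothelium, at 13.1 and 21.7 FPKM versus 8.21 and 11.4 FPKM. Groups did not overlap for either gene, as for 35.3% of the tested genes of this list and 33.7% of all tested genes. Mcfd2 and F2r had log2 differences of 1.09 and 0.32, and without mouse WT-139 that of Mcfd2 moved to 0.15. The thrombin gene F2, Plg, F13b, Serpina1a and Serpina10 were listed at 0 in all mice, and the fibrinogen genes Fga, Fgb and Fgg did not exceed 0.693, 0.339 and 0.710 FPKM.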

How the data were processed

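Gene-level FPKM values for 4 polyA RNA-seq libraries were deposited by the authors in 1 table. Bowtie 0.12.2 and the build mm9 are named per the submitters' processing notes. Which tool made the FPKM values, and its annotation, filters and use of strand, is not given in the sources used here. FPKM tables hold no read totals, so the depth is unknown. The lowest values of 2494 genes with 1 exon gave only a rough guide (0.742 to 1.25 times the depth of mouse WT-140), and no interval was made from it. Genotypes come from the labels.

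Symbols turned into dates (27) were left out, and 12103 genes with at least 1 FPKM in at least 2 mice were tested with limma 3.58.1 in R 4.3.3 on log2(FPKM + 1), two-sided, with a mean-variance trend, no block and Benjamini-Hochberg adjustment (threshold 0.05). The script was tested on simulated data with the observed means and spread, in which 50 well expressed genes were changed for each fold. It recovered 0% of 2-fold and of 4-fold changes, 36% of 8-fold changes and 48% of 16-fold changes. A lack of calls therefore does not show that levels were equal. With 2 mice against 2 an exact permutation test cannot go below p = 0.333. The 35 genes, the other lists and the promoters shown were chosen with earlier results of these data known. The text names all 35, and of the further complement and coagulation genes the 6 tested ones of each list with the smallest unadjusted p, except where a gene is not reported here. Others named were chosen after their values were seen. Positions are from Gencode vM1 (mm9). Plots used Python 3.11.15 and matplotlib 3.10.9. Alternatives covered the pseudocount, filter, scaling, variance trend, threshold and leaving out each mouse.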

Additional observations from a re-analysis of the deposited data

How the results depend on the processing

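No gene of the set and no gene of the table passed limma's adjusted threshold under another pseudocount (0.1), filter, scaling or variance model, at an adjusted p of 0.1, or without mice WT-139, KO-826 or KO-850. Leaving out each mouse in turn gave 0 to 163 genes called in all and 0 to 5 in the set, the upper values without mouse WT-140. A lone mouse is there assumed to vary like the others. The filter at 5 FPKM left 24 genes of the set, of which 4 had groups that did not overlap, because fewer genes were tested. Median-of-ratios scaling turned Serping1 from 0.02 to -0.0089, and no other gene changed sign under a pseudocount, filter, scaling or variance alternative. Leaving out each mouse changed the sign of 22 log2 differences. They ranged from -0.61 to 1.10 for C1qa, -0.43 to 0.62 for C1qb, -0.26 to 1.23 for C1qc, -0.91 to 0.67 for C4b, -2.63 to 0.35 for C3, -3.19 to 0.17 for Cfb, -0.39 to 1.10 for Cfp, -0.56 to 0.61 for Serping1, -0.31 to 0.21 for Cd59a, -0.39 to 0.31 for C3ar1 and -2.33 to 0.010 for C5ar1. For Itgam they ranged from -3.97 to 0.18, for F5 from -0.11 to 0.93, for F7 from -0.62 to 0.78, for F13a1 from -2.40 to 0.18, for Thbd from -0.62 to 1.02, for Procr from -0.32 to 0.44, for Tfpi from -0.54 to 0.27, for Plau from -0.057 to 0.83, for Plaur from -0.58 to 0.28, for Plat from -0.23 to 0.76 and for Serpinb2 from -2.28 to 1.50. The median difference over the set, an alternative added after the data were seen, lay between -0.30 (without mouse KO-850) and -0.0076 (filter at 5 FPKM). The cause was not tested. No paired analysis was possible because the labels give no numbers shared between the genotypes. The depth is unknown, which limits the low genes most.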
